A study of Mus musculus with 9 samples.

Results

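The genes described here encode subunits of the mitochondrial respiratory chain, the 4 electron transfer complexes and the ATP synthase of the inner mitochondrial membrane, together with cytochrome c. They were chosen by name. Every array probe was taken whose gene symbol was that of a nuclear-encoded subunit of NADH dehydrogenase (complex I, Nduf), succinate dehydrogenase (complex II, Sdh), the cytochrome bc1 complex (complex III, Uqcr and Cyc1), cytochrome c oxidase (complex IV, Cox4 to Cox8) or ATP synthase (complex V, Atp5), or that of cytochrome c (Cycs). The names covered 112 probes of 82 gene symbols among 41174 probes on the array. A probe was kept if it had a spot without an outlier flag on every array and was well above background on at least 3 of 9 arrays. This left 108 probes of 80 genes, of 36779 probes kept in the whole series. Cox8c and Atp5l had no kept probe and were not analysed. The Cox8c probe was well above background on 1 array, and the Atp5l probe was dropped for its outlier flags. The 80 genes were 35 of complex I, 4 of complex II, 8 of complex III, 17 of complex IV, 15 of complex V and Cycs. Ndufa4 was counted with complex I by its symbol alone. Cox7a2l, Emc8 (the file's Cox4nb) and Dmac2l (the file's Atp5s) carry a subunit-like name and are no core subunits. Of the 80 genes, 74 were well above background on all 9 arrays.

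Complexes I and II pass electrons from NADH and succinate to ubiquinone, complex III passes them on to cytochrome c, and complex IV hands them to oxygen. Complexes I, III and IV pump protons while they do so, and ATP synthase uses the returning protons to make ATP. Neural stem cells are generally described as relying more on glycolysis than their neuronal progeny, which gives the chain its interest in this tissue. The subunits encoded by the mitochondrial genome itself were looked for by name, and 0 of 13 were matched, so only nuclear genes are described.

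Messenger RNA of sorted cells was hybridised to 9 Agilent 1-colour arrays, 3 for every group. The mice were 6 to 8 weeks old by the sample labels (6 weeks in the series' own description). The first group is hippocampal cells of DCX-DsRed mice, in which the Dcx promoter drives the red protein DsRed. Dcx is active in newborn neurons. The second is hippocampal cells of Sox2-GFP mice, in which the promoter of the stem cell factor Sox2 drives green fluorescent protein. The third is Sox2-GFP cells of the SVZ (subventricular zone), which lines the lateral ventricle and holds stem cells. Both lines carried their reporter transgene and no other allele or treatment is labelled. A sorted cell is one in which the promoter drove the reporter, or in which the protein persisted, and need not be a stem cell or a newborn neuron. Tissue from 10 dissections was pooled per experiment and the RNA of 1000 cells was amplified before labelling with Cy3. Nothing in the labels says that replicates A, B and C were separate pools of animals. The p-values therefore reflect only how far these samples scatter, and that scatter may be technical. The 3 comparisons below share their groups in pairs, so they are given side by side and are not independent.

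Levels are given on a log2 scale, as the processed signal relative to the 75th percentile of its array. A level of 0 equals that percentile, and 1 unit is a doubling. Levels are compared between groups for the same probe, never between probes. Between 80.2% and 88.3% of probes were well above background on each array, and no kept probe of these genes was saturated. The number of arrays limits the precision. Hippocampal Sox2-GFP replicate C stood apart: over all genes its levels correlated with those of replicates A and B of its group at 0.816 and 0.783, while A and B correlated at 0.919. The median level of 11 astrocyte markers was 2.41, 2.91 and -0.61 on replicates A, B and C of this group. That of 10 neural stem and progenitor markers was 0.75, 0.85 and -1.5, and Sox2 itself was at 0.96, 0.94 and -0.92. The arrays lay on 3 slides, with hippocampal Sox2-GFP A and B alone on slide 2. As a check of the sort, hippocampal Sox2-GFP minus DCX-DsRed was -1.27 for Sox2 (adjusted p 0.327), against the direction of the sort, and -1.02 for Dcx (adjusted p 0.778), in its direction. For SVZ Sox2-GFP minus DCX-DsRed, Sox2 was at 0.18 (adjusted p 0.941). Dcx was at 1.35 there (adjusted p 0.775), against the direction of the sort. None of these differences passed the test. Markers of other cell types differed between the groups. The 11 choroid plexus markers had a summed signal of 55.2 to 192 times the array's 75th percentile on the hippocampal Sox2-GFP arrays, 2.42 to 3.28 on the DCX-DsRed arrays (Aqp1 not well above background on any of them) and 2.35 to 3.47 on the SVZ arrays. The 10 ependymal markers summed to 19.3 to 34.0, 2.09 to 3.45 and 4.23 to 8.85 in the same order. The 12 markers of myelinating oligodendrocytes summed to 298 to 384 on the DCX-DsRed arrays, 3.52 to 42.7 on the hippocampal Sox2-GFP arrays and 25.5 to 88.1 on the SVZ arrays. The 10 immature neuron markers summed to 43.7 to 57.1 on the DCX-DsRed arrays and 25.7 to 54.5 on the SVZ arrays, which overlapped. On the hippocampal Sox2-GFP arrays these markers summed to 10.9 to 17.2. In bulk RNA, fewer cells of a type and less RNA per cell cannot be told apart.

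Respiratory chain genes are known targets of the transcription factors NRF1, YY1 and the ETS family member GABPA, so the promoter windows of the members were searched for their core motifs. RefSeq windows (GRCm38.p6), running from 250 bases before to 50 bases after a transcript start, were held for 65 of the 80 genes, in 70 windows. On either strand, GCGCATGCG (NRF1) occurred in 11.4% of the members' windows and in 1.75% of all 32851 windows. AAGATGGCG (YY1) occurred in 10% against 1.4%, and CCGGAAG (ETS) in 21.4% against 8.86%. The 3 strings do not overlap each other in the windows shown, but GCGCATGCG can overlap its own reverse complement. At least 1 of the 3 was found for 26 genes. A match wholly before the start was held by 6 of the 8 genes with an NRF1 match and 11 of the 15 with an ETS match. For YY1 it was 1 of 7. The 250 bases upstream of 5 members are printed 5′ to 3′, with matches in capitals. Cox5a and Ndufc1 are shown because their differences between groups lead the results below, and Cox6a1, Ndufa11 and Atp5j as members of complexes IV, I and V with an NRF1 or YY1 match before the start.
Cox5a (chr9:57520982-57521231, plus strand): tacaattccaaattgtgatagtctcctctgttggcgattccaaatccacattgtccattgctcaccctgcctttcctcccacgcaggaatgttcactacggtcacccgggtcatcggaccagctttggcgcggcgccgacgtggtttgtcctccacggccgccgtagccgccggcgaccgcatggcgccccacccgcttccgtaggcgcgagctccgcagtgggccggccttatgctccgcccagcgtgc
Ndufc1 (chr3:51408956-51409205, minus strand): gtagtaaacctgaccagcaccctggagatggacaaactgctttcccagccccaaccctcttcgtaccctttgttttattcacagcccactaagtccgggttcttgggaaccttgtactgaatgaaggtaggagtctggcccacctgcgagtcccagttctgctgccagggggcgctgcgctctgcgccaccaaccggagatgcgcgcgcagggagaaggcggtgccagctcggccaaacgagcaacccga
Cox6a1 (chr5:115348959-115349208, minus strand): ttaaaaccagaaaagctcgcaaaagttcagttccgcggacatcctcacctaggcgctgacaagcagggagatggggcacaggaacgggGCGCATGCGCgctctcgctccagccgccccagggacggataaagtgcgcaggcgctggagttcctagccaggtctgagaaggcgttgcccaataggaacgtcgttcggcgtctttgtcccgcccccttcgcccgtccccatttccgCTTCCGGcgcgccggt
Ndufa11 (chr17:56717512-56717761, plus strand): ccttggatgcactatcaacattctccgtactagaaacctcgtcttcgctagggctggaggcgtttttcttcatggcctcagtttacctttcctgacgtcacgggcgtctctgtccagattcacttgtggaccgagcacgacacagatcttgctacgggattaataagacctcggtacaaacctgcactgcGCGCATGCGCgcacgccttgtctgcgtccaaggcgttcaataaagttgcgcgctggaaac
Atp5j (chr16:84834977-84835226, minus strand): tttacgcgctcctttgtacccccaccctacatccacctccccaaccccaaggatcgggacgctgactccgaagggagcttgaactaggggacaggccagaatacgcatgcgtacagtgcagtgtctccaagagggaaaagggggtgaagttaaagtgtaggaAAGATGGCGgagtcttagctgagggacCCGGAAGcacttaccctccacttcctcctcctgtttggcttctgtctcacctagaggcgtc

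In Cox6a1 overlapping NRF1 matches on both strands run from 162 to 153 bases before the start, with an ETS match on the other strand from 16 to 10 bases before it. Ndufa11 has such a pair of NRF1 matches from 60 to 51 bases before the start. Atp5j has a YY1 match from 88 to 80 and an ETS match from 61 to 55 bases before it. The Ndufc1 window has a YY1 match after the start, from base 23 to base 31, outside the part shown. None of the 3 strings stands in the Cox5a window, which says only that these letters are not there. The matches are descriptions of sequence, and no binding was measured.

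Taken over all 80 genes, levels were higher in hippocampal Sox2-GFP cells than in either other group, and the other groups were close to each other. The members' median level was 0.57, 0.25 and 0.70 on DCX-DsRed arrays A, B and C, 1.17, 0.88 and 1.55 on hippocampal Sox2-GFP arrays, and 0.66, 0.48 and 0.61 on SVZ arrays. The hippocampal Sox2-GFP medians lay above all 6 others, and the DCX-DsRed and SVZ medians overlapped. The median of all 24890 genes was between -1.45 and -0.98 on every array, with the lowest value on hippocampal Sox2-GFP replicate C.

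**Figure D1:**
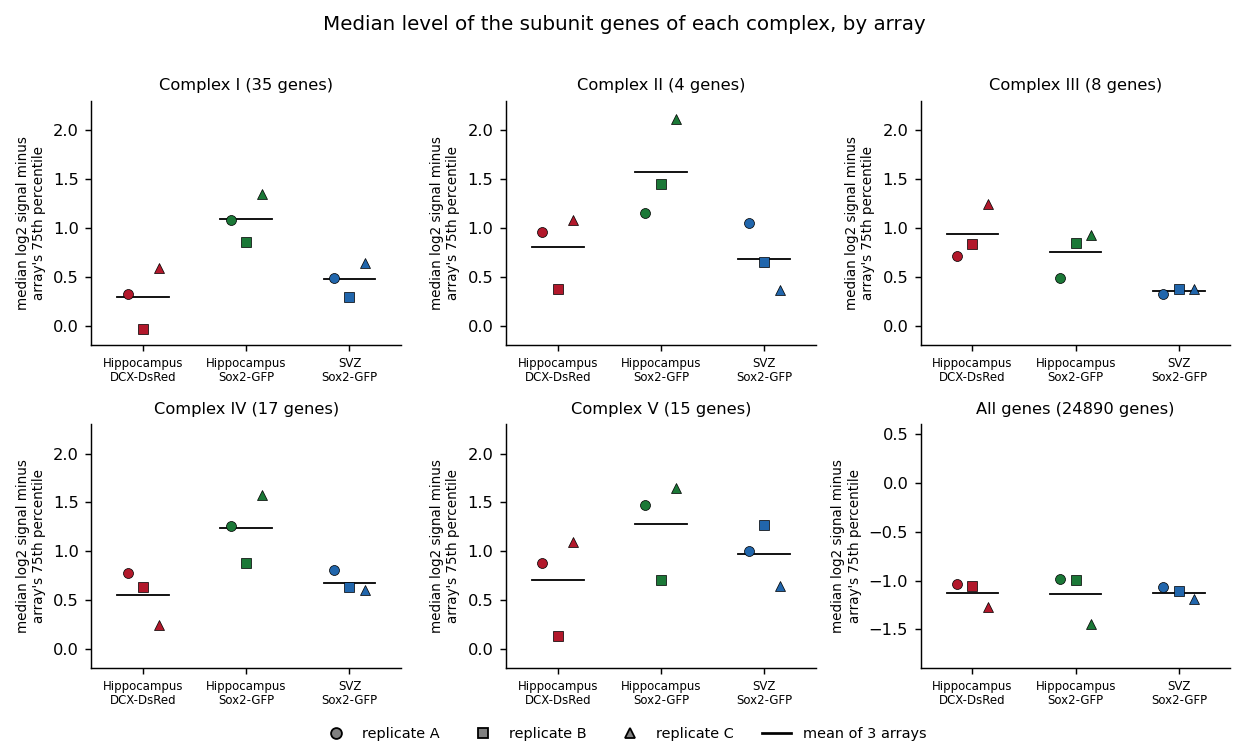
Median level (log2 signal minus the array's 75th percentile) of the subunit genes of each complex and of all genes, with 1 point per array (circle, square and triangle for replicates A, B and C) and a line at the mean of the 3 arrays. For complex I the hippocampal Sox2-GFP arrays (0.86 to 1.35) lie above the DCX-DsRed (-0.03 to 0.59) and SVZ arrays (0.29 to 0.64). For complex III they do not lie above the DCX-DsRed arrays. For complex V (0.71 to 1.65) they overlap both the DCX-DsRed (0.13 to 1.1) and the SVZ arrays (0.64 to 1.27).

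Between hippocampal Sox2-GFP and DCX-DsRed cells, the median difference of the 80 genes was 0.68, against -0.08 over all genes, and 61 of the 80 differences were above 0 (46.2% of all genes were). With limma and Benjamini-Hochberg adjustment over all genes, 1 member was called higher (Cox5a) and 0 lower, where 3.17% of all genes were called in either direction, 1.74% higher and 1.43% lower. At an unadjusted p under 0.05, 18 members were higher and 2 lower, where 8.3% and 8.63% of all genes were. For 24 members (30%) all 3 hippocampal Sox2-GFP arrays lay above all 3 DCX-DsRed arrays, where 11.5% of all genes did, and for Ndufb7 and Uqcrc1 (2.5%) they lay below, where 13.3% of all genes did. Without hippocampal Sox2-GFP replicate C the median was 0.59 with 65 of 80 above 0, and 33.8% of members lay above without overlap, where 21.7% of all genes did.

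Between SVZ and hippocampal Sox2-GFP cells the direction was turned. The median difference was -0.70, against 0.07 over all genes, with 16 of 80 members above 0 and 64 below, where 54.4% of all genes were above 0. No member was called with limma, where 0.398% of all genes were called, 0.0442% higher and 0.354% lower. At an unadjusted p under 0.05, 21 members were lower and 1 higher, where 6.48% and 4.33% of all genes were. For 25 members (31.2%) all SVZ arrays lay below all hippocampal Sox2-GFP arrays, where 8.09% of all genes did, and for 2 members (2.5%) they lay above, where 8.83% did. Without replicate C the median was -0.48, with 60 of 80 below 0, and 33.8% lay below without overlap, where 15.3% of all genes did.

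Between SVZ Sox2-GFP and hippocampal DCX-DsRed cells the median difference was -0.02, and -0.03 over all genes. Of the 80 genes 39 were above 0 and 41 below, where 48.4% of all genes were above 0. Limma called 0 members, where 1.55% of all genes were called, 0.542% higher and 1% lower. At an unadjusted p under 0.05, 3 were higher and 5 lower, where 6.52% and 7.15% of all genes were. In 5 members all SVZ arrays lay above all DCX-DsRed arrays and in 6 below, where 10.6% and 10.4% of all genes did.

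**Figure D2:**
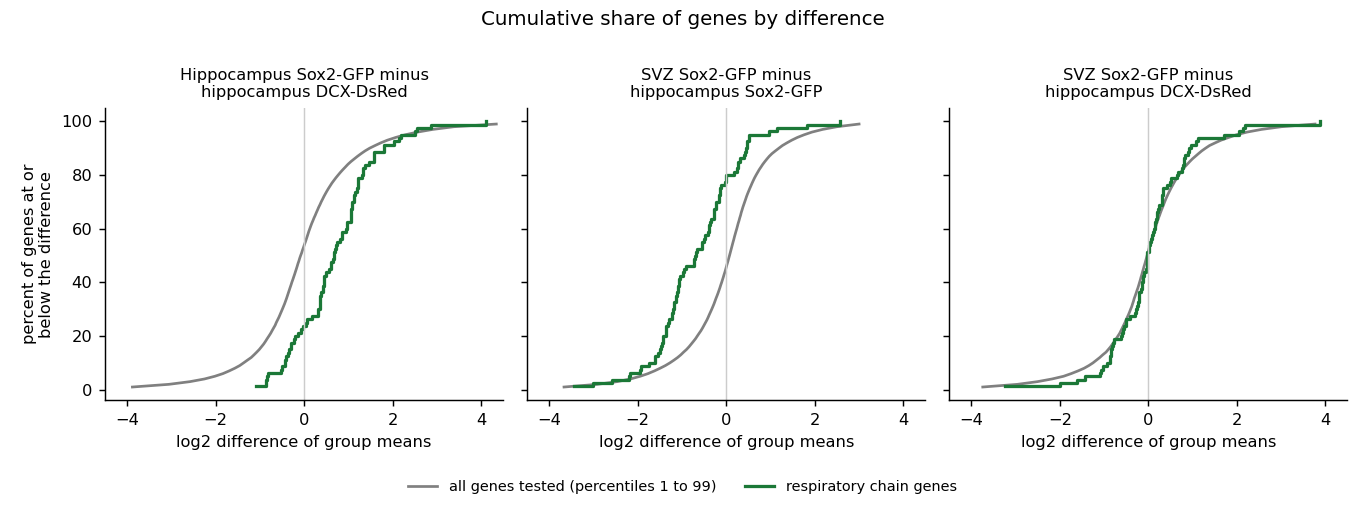
Percent of genes (y axis) at or below a given log2 difference of group means (x axis), for the 80 respiratory chain genes (green steps) and all genes tested (grey, percentiles 1 to 99). The members' curve lies to the right of all genes between hippocampal Sox2-GFP and DCX-DsRed cells (median 0.68), to the left between SVZ and hippocampal Sox2-GFP cells (median -0.70), and on top of it between SVZ and DCX-DsRed cells (median -0.02).

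Markers of the choroid plexus and of ependymal cells were also higher in hippocampal Sox2-GFP cells. The choroid plexus markers had a median difference of 5.20 between hippocampal Sox2-GFP and DCX-DsRed cells, with 9 of 11 called higher, and of -4.09 between SVZ and hippocampal Sox2-GFP cells, with 5 of 11 called lower. The ependymal markers had medians of 4.29 (6 of 10 called higher) and -2.02 (none called). On the single arrays of hippocampal Sox2-GFP cells, the median level of the choroid plexus markers was 1.70, 1.13 and 3.16 and that of the respiratory chain genes 1.17, 0.88 and 1.55, with replicate C highest and B lowest in both. The ependymal markers had the opposite order, 1.28, 1.62 and 1.01, with B highest and C lowest. The myelin markers moved the other way, with a median of -4.81 and 7 of 12 called lower between hippocampal Sox2-GFP and DCX-DsRed cells. The part of these cell types in the respiratory chain differences was not tested.

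Slide could be told apart from group only in part, since hippocampal Sox2-GFP A and B had a slide to themselves. With the slide as a block, the median differences were 0.94 and -1.39, and within slide 3, which held arrays of all 3 groups, they were 0.85 and -1.40, in the order of the first and second comparisons above. Both values rest on replicate C, the only hippocampal Sox2-GFP array that shares a slide with another group.

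**Figure D3:**
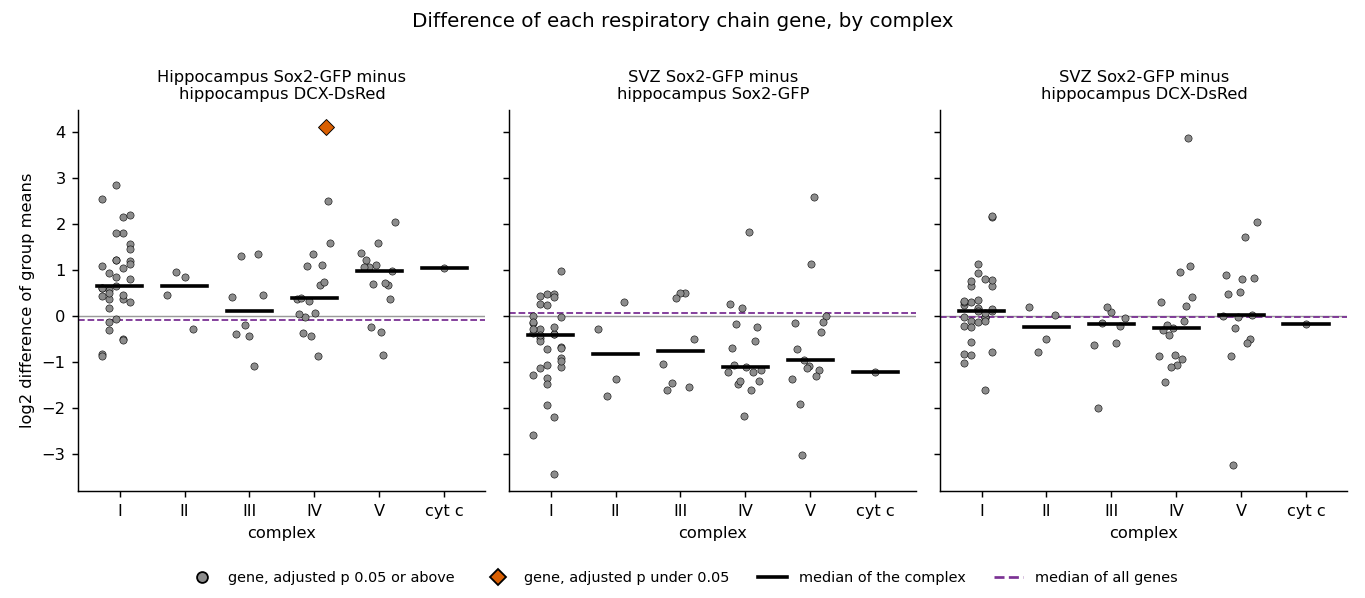
Log2 difference of group means for each respiratory chain gene (1 point per gene), by complex, in the 3 comparisons. Thick lines are the median of the complex, the dashed line is the median of all genes, and the orange diamond is Cox5a, with an adjusted p under 0.05.

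Complex I, the entry point of electrons from NADH, had 28 of its 35 genes above 0 between hippocampal Sox2-GFP and DCX-DsRed cells, with a median difference of 0.65. The groups did not overlap for 12 genes, 11 of them higher and 1 lower, where 11.5% and 13.3% of all genes did not overlap in these directions. Between SVZ and hippocampal Sox2-GFP cells the median was -0.41 and 28 of 35 were below 0. With the slide as a block this median was -1.20, and within slide 3 it was -1.21. The 7 core subunits, which carry the flavin and the iron-sulphur clusters, had a median of 0.43 in the hippocampus. That of the 28 genes counted as accessory subunits, Ndufa4 among them by its symbol, was 0.73.

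Ndufc1, a small accessory subunit of the membrane arm, had the smallest p of complex I between SVZ and hippocampal Sox2-GFP cells. Its level was 0.24, -0.14 and 1.62 on DCX-DsRed arrays, 2.33, 1.75 and 3.08 on hippocampal Sox2-GFP arrays and -0.82, -0.44 and -1.88 on SVZ arrays. The 3 groups did not overlap, with hippocampal Sox2-GFP cells highest and SVZ cells lowest. The difference between SVZ and hippocampal Sox2-GFP cells was -3.43 (SE 0.60), a factor of 10.8, with an adjusted p of 0.068, so it was not called. It passed in 3 of 21 alternative fits (normexp background, 0.0386; quantile normalization, 0.0402; slide as a block, 0.0429), and with each array left out the difference stayed between -3.75 and -3.02 without passing. Ndufc1 was 1.81 (SE 0.60) higher in hippocampal Sox2-GFP than in DCX-DsRed cells, with an adjusted p of 0.171.

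Ndufs8, a core subunit that holds iron-sulphur clusters on the path to ubiquinone, had the smallest p of complex I in the hippocampal comparison. It was at 0.63, -0.01 and -1.04 in DCX-DsRed cells, 1.92, 1.71 and 1.39 in hippocampal Sox2-GFP cells and 0.54, -0.05 and 0.11 in SVZ cells. The hippocampal Sox2-GFP arrays stood above the other 6, which overlapped. The difference from DCX-DsRed cells was 1.81 (SE 0.45, adjusted p 0.0775), and the SVZ difference from hippocampal Sox2-GFP cells was -1.47 (adjusted p 0.296).

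Ndufa9, an accessory subunit near the ubiquinone site, had another order. Its levels were -0.53, -0.28 and 0.01 in DCX-DsRed cells, 0.39, 0.52 and 0.24 in hippocampal Sox2-GFP cells, and 1.12, 0.52 and 0.96 in SVZ cells. SVZ arrays were highest and DCX-DsRed arrays lowest, and SVZ replicate B was next to hippocampal Sox2-GFP replicate B. The SVZ minus DCX-DsRed difference was 1.13 (SE 0.31, adjusted p 0.139).

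Ndufa1 and Ndufb7 lie outside the naming rule and were picked after their values were seen, as examples of opposite direction in the hippocampus. Ndufa1, an accessory subunit of the membrane arm, was at -2.78, -2.35 and -1.24 in DCX-DsRed cells, 0.65, -0.13 and 0.74 in hippocampal Sox2-GFP cells and -3.55, -1.30 and -1.63 in SVZ cells. The hippocampal Sox2-GFP arrays were the high ones, by 2.55 (SE 0.67, adjusted p 0.089) over DCX-DsRed cells, and SVZ minus hippocampal Sox2-GFP was -2.58 (adjusted p 0.211). Ndufb7 was at 1.81, 1.61 and 1.85 in DCX-DsRed cells, 1.08, 0.70 and 0.88 in hippocampal Sox2-GFP cells and 0.49, 1.05 and 0.64 in SVZ cells. DCX-DsRed was the high group there, with differences of -0.87 and -1.03 for the Sox2-GFP groups against it (adjusted p 0.177 and 0.159).

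The 4 subunits of complex II, which is also the succinate dehydrogenase of the citric acid cycle, had a median difference of 0.66 between hippocampal Sox2-GFP and DCX-DsRed cells and -0.82 between SVZ and hippocampal Sox2-GFP cells, and none was called. The medians were 0.38 and -0.62 without replicate C and 1.02 and -1.38 with the slide as a block. Sdhc, a membrane anchor, had the smallest p in all 3 comparisons. Its level was 1.47, 0.86 and 0.98 in DCX-DsRed cells, 1.47, 1.86 and 2.56 in hippocampal Sox2-GFP cells and 0.95, 0.21 and 0.62 in SVZ cells. Replicate A of DCX-DsRed and of hippocampal Sox2-GFP cells were next to each other, and all SVZ arrays were below the hippocampal Sox2-GFP arrays (-1.37, SE 0.39, adjusted p 0.262). A second Sdhc probe gave 2.52 between hippocampal Sox2-GFP and DCX-DsRed cells, where the first gave 0.86, and 0.04 between SVZ and hippocampal Sox2-GFP cells, so the probes differ. Sdha, the flavoprotein that oxidises succinate, differed by 0.46 and -0.28 in the same comparisons, the iron-sulphur subunit Sdhb by -0.29 and 0.31, and the anchor Sdhd by 0.96 and -1.75, each within overlapping groups. Both Sdhb differences turned their sign without hippocampal Sox2-GFP replicate C (0.20 and -0.17), and the Sdhd difference between SVZ and hippocampal Sox2-GFP cells ran from -2.65 to -0.86 with an array left out.

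Complex III was split. Between hippocampal Sox2-GFP and DCX-DsRed cells 4 of its 8 genes were above 0 and 4 below, with a median of 0.11. That median was -0.19 with the slide as a block and 0.53 without replicate C, so its sign was not stable. Between SVZ and hippocampal Sox2-GFP cells the median was -0.77, and -0.08 with the slide as a block. Both core proteins were below 0 between hippocampal Sox2-GFP and DCX-DsRed cells, but Uqcrc2 (-0.43, groups overlapping) was at -0.01 without replicate C. Uqcrc1 was at 0.88, 1.25 and 0.63 in DCX-DsRed cells, 0.13, -0.02 and -0.61 in hippocampal Sox2-GFP cells and 0.51, 0.44 and 0.07 in SVZ cells. The DCX-DsRed arrays were above all others (-1.08 for hippocampal Sox2-GFP, SE 0.34, adjusted p 0.146), but another Uqcrc1 probe gave 0.73.

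Uqcrh, the hinge subunit beside cytochrome c1, went with the majority. It was at 2.73, 2.09 and 2.29 in DCX-DsRed cells, 2.93, 3.45 and 4.62 in hippocampal Sox2-GFP cells and 1.77, 1.87 and 3.0 in SVZ cells. The hippocampal groups did not overlap, and SVZ replicate C reached into the hippocampal Sox2-GFP range. The differences were 1.30 (SE 0.53, adjusted p 0.263) and -1.45 (adjusted p 0.383), with a second probe at 1.56 and -1.34. Cyc1, the haem subunit cytochrome c1, was at 0.53, 0.25 and 1.88 in DCX-DsRed cells, 0.71, 0.93 and 2.28 in hippocampal Sox2-GFP cells and 0.10, 0.29 and 0.43 in SVZ cells. Each SVZ array was below each hippocampal Sox2-GFP array (a difference of -1.04, adjusted p 0.556), and the hippocampal groups overlapped. Uqcrq, a small accessory subunit, cannot be given a direction in the hippocampus: its brighter probe gave -0.40, and 0.82 without replicate C, while another probe, well above background on 6 arrays, gave 4.13 (adjusted p 0.109).

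Cycs, the mobile carrier between complexes III and IV, was at 2.86, 3.13 and 3.9 in DCX-DsRed cells, 4.16, 3.50 and 5.38 in hippocampal Sox2-GFP cells and 2.80, 2.71 and 3.88 in SVZ cells. Replicate C was the highest array of each group and the groups overlapped. The hippocampal difference was 1.05 (SE 0.57, adjusted p 0.407), and 0.53 without hippocampal Sox2-GFP replicate C. The gene's other probes gave 0.01 and 0.06.

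Complex IV, which reduces oxygen, had 13 of 17 genes above 0 between hippocampal Sox2-GFP and DCX-DsRed cells, with a median of 0.39, and 14 of 17 below 0 between SVZ and hippocampal Sox2-GFP cells, with a median of -1.12. Without replicate C the medians were 0.25 and -0.74, with the slide as a block 1.59 and -1.72, and within slide 3 1.27 and -1.77. Cox5a, a subunit of the matrix side, was the called member. Its level was -3.15, -1.62 and -5.30 in DCX-DsRed cells (mean -3.36 ± 1.85, SD, n = 3), 0.38, 0.31 and 1.55 in hippocampal Sox2-GFP cells (0.75 ± 0.69) and -0.07, 0.29 and 1.32 in SVZ cells (0.51 ± 0.72). Both Sox2-GFP groups overlapped, and all 3 DCX-DsRed arrays lay below them, far apart from each other. Hippocampal Sox2-GFP minus DCX-DsRed was 4.11 (SE 0.88), a factor of 17.2, with an adjusted p of 0.0484. SVZ minus DCX-DsRed was 3.87 (adjusted p 0.0851), and SVZ minus hippocampal Sox2-GFP -0.24 (adjusted p 0.947).

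The Cox5a call was lost in 15 of 21 alternative fits, with adjusted p between 0.0163 and 0.136. Among them, the replicate letter as a block gave 0.106 and leaving out an array ended the call for 8 of 9 arrays. Leaving out DCX-DsRed replicate B kept it (0.0345). The difference was 3.14, a factor of 8.79, without DCX-DsRed replicate C and 4.97, a factor of 31.4, without DCX-DsRed replicate B. With normexp background it was 3.16 (adjusted p 0.0163) and with the slide as a block 5.58 (0.0689). A second Cox5a probe, well above background on all arrays, was at -1.72, -2.22 and -3.61 in DCX-DsRed cells, -0.23, -0.59 and 0.39 in hippocampal Sox2-GFP cells and -0.88, -1.89 and 0.29 in SVZ cells. It gave 2.37 (adjusted p 0.121) and 1.69 (adjusted p 0.329) against DCX-DsRed cells, the same direction with a smaller size, and its SVZ and DCX-DsRed arrays overlapped.

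Several complex IV subunits come in isoforms, 1 of them common to most tissues and another found mainly in muscle, lung or testis. Cox6b2, the isoform known from testis, was at 0.03, -1.04 and -1.18 in DCX-DsRed cells, 1.45, 0.84 and 3.02 in hippocampal Sox2-GFP cells and 0.49, 0.96 and -0.39 in SVZ cells. The hippocampal groups did not overlap (2.5, SE 0.65, adjusted p 0.086). Its common counterpart Cox6b1 was at 0.58, 1.35 and 2.13, then 2.08, 2.39 and 3.60, and 1.16, 0.63 and -0.28 in the same order of groups. The hippocampal groups overlapped by replicate C of DCX-DsRed cells, while all SVZ arrays were below hippocampal Sox2-GFP cells (-2.18, SE 0.59, adjusted p 0.238).

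The other isoform sets gave values on both sides of 0. Cox7a1, the muscle isoform, differed by 1.12 between hippocampal Sox2-GFP and DCX-DsRed cells without overlap (adjusted p 0.203), and its common counterpart Cox7a2 by 0.39. Cox4i1, the common form, differed by 0.36 and by -0.26 without replicate C, and the lung-enriched Cox4i2 by -0.44. Cox6a1 differed by 0.68 and the muscle form Cox6a2 by 0.04, and Cox8a by 0.75 and the muscle form Cox8b by -0.37. Between SVZ and hippocampal Sox2-GFP cells the common forms Cox4i1, Cox6a1, Cox7a2 and Cox8a were at -1.22, -1.61, -0.69 and -0.54. Among these, only Cox6a1 had groups that did not overlap (adjusted p 0.323). Without replicate C the values were -0.60, -1.17, -0.47 and -0.51. The drop was not limited to the common forms. With all arrays, the tissue forms Cox6b2, Cox7a1 and Cox8b were at -1.42, -1.22 and -1.06 in this comparison, and Cox4i2 and Cox6a2 at 0.17 and 0.27. Of these tissue forms, only Cox7a1 had groups that did not overlap (adjusted p 0.329). Cox7a2l, a supercomplex factor rather than a subunit, differed by 0.06 and -1.12.

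**Figure D4:**
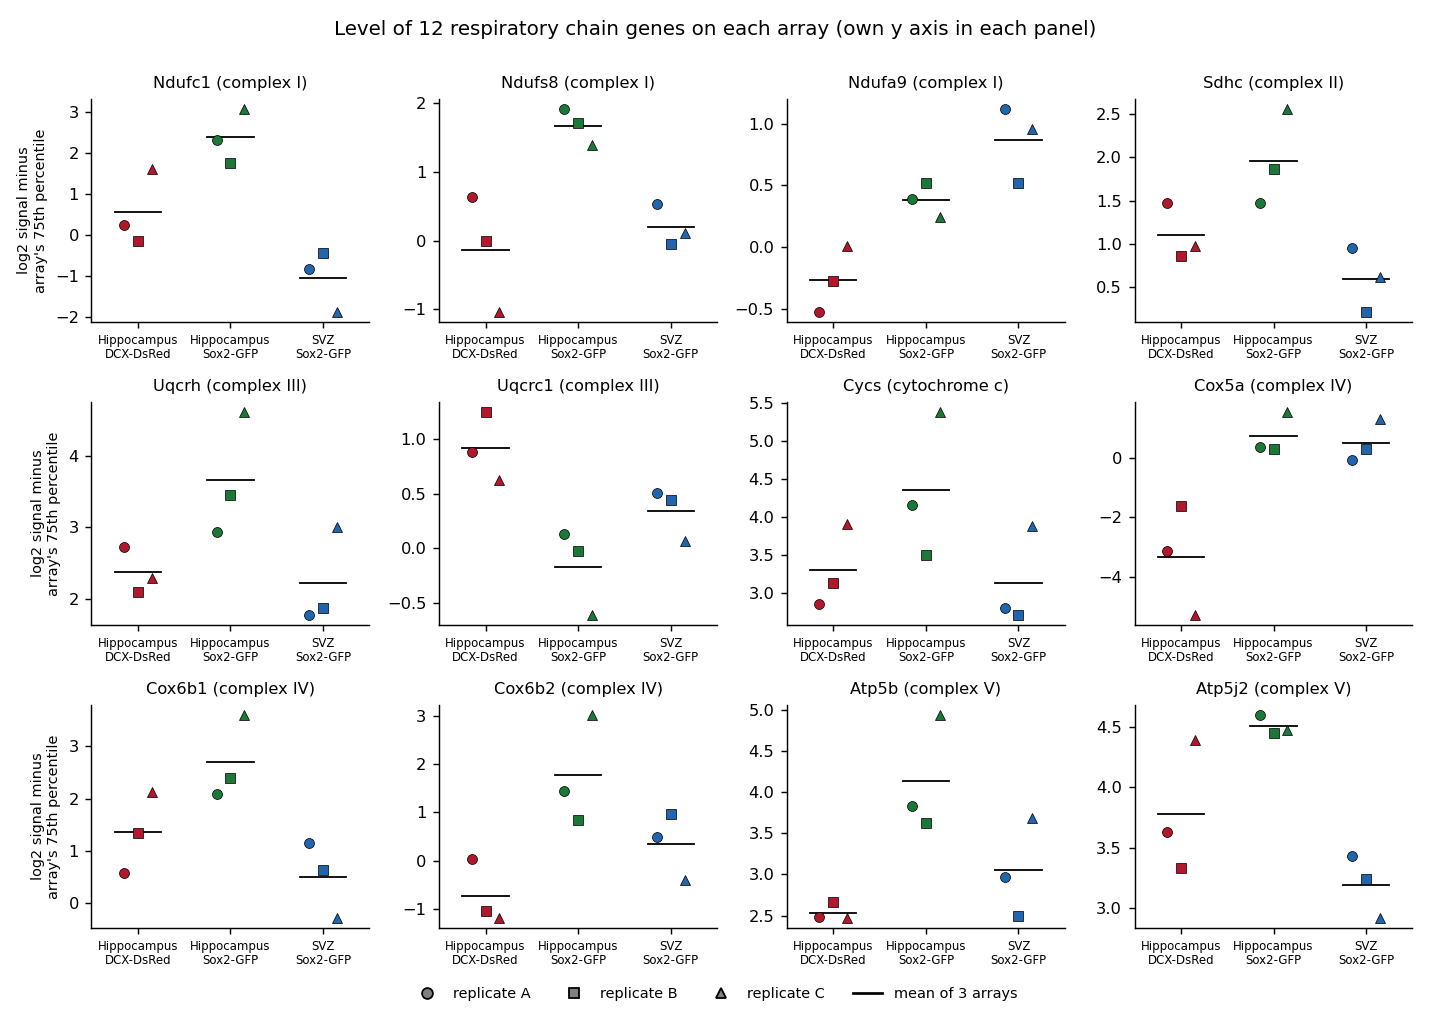
Level of 12 respiratory chain genes on each array (log2 signal minus the array's 75th percentile, own y axis in each panel), with 1 point per array, the marker giving the replicate letter and the line the mean of 3 arrays. Ndufs8 and Atp5j2 are highest on all hippocampal Sox2-GFP arrays, Uqcrc1 is highest in DCX-DsRed cells, and Cox5a is low only in DCX-DsRed cells among these groups (-5.30 to -1.62).

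Complex V, the ATP synthase, had a median difference of 0.97 between hippocampal Sox2-GFP and DCX-DsRed cells, with 12 of 15 genes above 0. Without replicate C it was 0.74, with 14 of 15 above 0, and with the slide as a block 1.1. All 5 subunits of the catalytic F1 head and its central stalk were above 0, with a median of 1.37. Between SVZ and hippocampal Sox2-GFP cells 13 of 15 genes of complex V were below 0, with a median of -0.96. It was -0.48 without replicate C and -1.68 with the slide as a block. The complex's median level overlapped between groups, at 0.71 to 1.65 on hippocampal Sox2-GFP, 0.13 to 1.1 on DCX-DsRed and 0.64 to 1.27 on SVZ arrays. No gene of the complex was called in any comparison in the main analysis.

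Atp5b, the catalytic beta subunit, was at 2.48, 2.66 and 2.47 in DCX-DsRed cells, 3.83, 3.63 and 4.94 in hippocampal Sox2-GFP cells and 2.97, 2.5 and 3.69 in SVZ cells. The hippocampal groups were apart and the SVZ arrays bridged them. The difference was 1.59 (SE 0.45), a factor of 3.02, with an adjusted p of 0.114, and 1.19 without replicate C. The other probes of Atp5b gave 2.64 and 1.19. Atp5j2, the f subunit of the membrane part, was at 3.63, 3.33 and 4.39 in DCX-DsRed cells, 4.6, 4.45 and 4.47 in hippocampal Sox2-GFP cells and 3.43, 3.24 and 2.92 in SVZ cells. The 3 hippocampal Sox2-GFP arrays lay close together and above the rest, with DCX-DsRed replicate C next to them, and SVZ minus hippocampal Sox2-GFP was -1.31 (SE 0.35, adjusted p 0.238).

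Atp5g1, Atp5g2 and Atp5g3 all make the same mature c-ring protein. Atp5g3 was at -2.59, -4.89 and -1.01 in DCX-DsRed cells, -2.84, -3.06 and -3.28 in hippocampal Sox2-GFP cells and -4.44, -7.41 and -6.41 in SVZ cells. All SVZ arrays were below the hippocampal Sox2-GFP arrays (-3.02, SE 1.03, adjusted p 0.347), although only 1 SVZ array was well above background, and DCX-DsRed replicate B reached into the SVZ range. Atp5g1 and Atp5g2 had differences of -0.96 and -0.34 there, with overlapping groups. A second Atp5g2 probe gave -0.73 in this comparison without overlap (adjusted p 0.54).

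With several probes for 23 of the genes, all probes of a gene had the same sign for 15 in the hippocampal comparison, for 19 between SVZ and hippocampal Sox2-GFP cells and for 13 between SVZ and DCX-DsRed cells. Over the 108 probes the medians were 0.76, -0.74 and -0.03, with 86, 21 and 51 probes above 0.

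The other mitochondrial gene lists are given by their counts and medians. The citric acid cycle and pyruvate dehydrogenase enzymes, which supply the chain with NADH and succinate, had 16 of 17 genes above 0 between hippocampal Sox2-GFP and DCX-DsRed cells, with a median of 1.03, and 12 of 17 below 0 between SVZ and hippocampal Sox2-GFP cells, with a median of -0.49. Without hippocampal Sox2-GFP replicate C these medians were 0.64 and -0.13, where those of all genes were 0.05 and -0.04, and with the slide as a block they were 1.1 and -1.1. None of the enzymes was called. Suclg1, a subunit of succinate-CoA ligase, had the smallest p, with a difference of 1.64 (adjusted p 0.154). Between SVZ and DCX-DsRed cells, where the respiratory chain genes had a median of -0.02, these enzymes had 0.58, with 15 of 17 above 0. The 76 proteins of the mitochondrial ribosome had medians of 0.19 and -0.13 in the comparisons of hippocampal Sox2-GFP with DCX-DsRed cells and of SVZ with hippocampal Sox2-GFP cells, and the 25 import genes of the Tomm and Timm families -0.07 and -0.10, with none called.

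**Figure D5:**
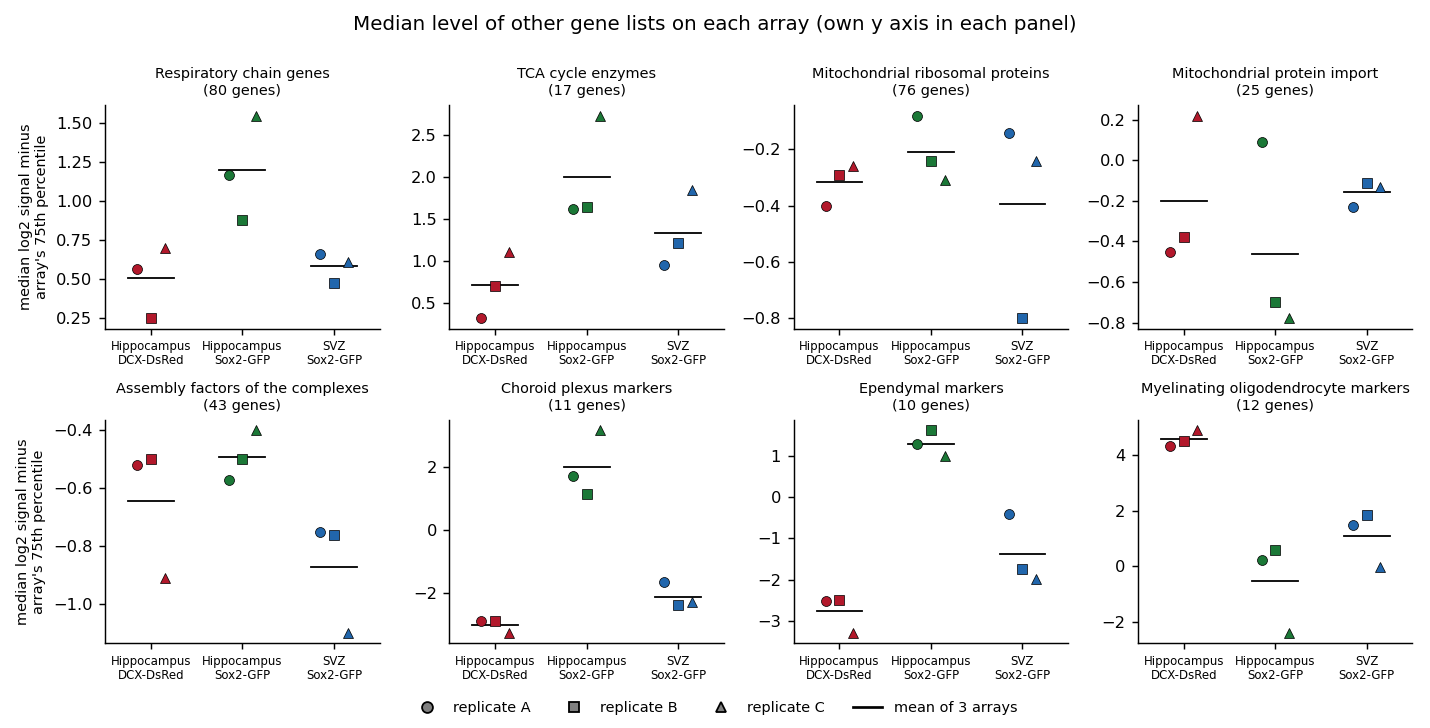
Median level (log2 signal minus the array's 75th percentile, own y axis in each panel) of the respiratory chain genes and 7 other lists on each array, with a line at the mean of 3 arrays. The choroid plexus (1.13 to 3.16) and ependymal markers (1.01 to 1.62) are highest on the hippocampal Sox2-GFP arrays, as the respiratory chain genes are. The citric acid cycle enzymes are at 1.62 to 2.73 there and overlap the SVZ arrays (0.95 to 1.85), and the ribosome and import lists overlap across all groups.

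The 43 measured assembly factors build the complexes without staying in them. Their median was -0.01 in the hippocampal comparison and -0.14 between SVZ and hippocampal Sox2-GFP cells. In the hippocampal comparison 1 was called higher and 1 lower, where 1.74% and 1.43% of all genes were. Between SVZ and hippocampal Sox2-GFP cells none was called. Between SVZ and DCX-DsRed cells 1 was called lower, where 1% of all genes were. Ndufaf2, an assembly factor of complex I, fell from 0.91, 0.78 and 0.68 in DCX-DsRed cells to -1.97, -1.08 and -2.86 in hippocampal Sox2-GFP cells and -2.0, -2.46 and -2.36 in SVZ cells. DCX-DsRed arrays were high and both Sox2-GFP groups low, by -2.76 (SE 0.45, adjusted p 0.0193) and -3.06 (SE 0.45, adjusted p 0.0201). With an array left out the call held for 5 and 4 of 9 arrays, with differences of -3.21 to -2.32 and -3.20 to -2.97. The calls were lost without DCX-DsRed A, B or C (adjusted p 0.0582 to 0.0905), without hippocampal Sox2-GFP A in the hippocampal comparison (0.0648) and without SVZ B or C against SVZ (0.0657 and 0.0795). Cox20, an assembly factor of complex IV, rose from 0.66, 0.70 and 1.05 to 2.52, 2.35 and 3.57 in hippocampal Sox2-GFP cells, with SVZ cells between at 1.95, 1.72 and 1.66 (2.01, SE 0.38, adjusted p 0.0334). Its call held with 2 of 9 arrays left out (hippocampal Sox2-GFP C and SVZ A), and the difference stayed between 1.63 and 2.24. With the slide as a block it was 2.73, and that of Ndufaf2 in the hippocampus -3.46. With the replicate letter as a block its adjusted p was 0.0609, and that of Ndufaf2 in SVZ against DCX-DsRed cells 0.0511.

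Among 12 carriers and uncoupling proteins, the median was 0.87 in the hippocampal comparison and 3 genes were called. Ucp2, an uncoupling protein of the inner membrane, was at -2.80, -1.17 and -4.0 in DCX-DsRed cells, 2.51, 2.03 and 3.58 in hippocampal Sox2-GFP cells and -1.94, -1.84 and -1.05 in SVZ cells. Hippocampal Sox2-GFP cells stood alone, 5.36 (SE 0.73, a factor of 41.2, adjusted p 0.00967) above DCX-DsRed cells. That call held in all 21 alternative fits, with a factor of 25.8 without DCX-DsRed replicate C and 69.0 without DCX-DsRed replicate B. The factor was 27.0 with normexp background and 107 with the slide as a block. SVZ minus hippocampal Sox2-GFP was -4.32 (adjusted p 0.0611). Slc25a31, a germ cell ADP/ATP carrier, rose by 2.11 (adjusted p 0.0373) and the neuronal uncoupling protein Slc25a27 fell by 2.65 on the log2 scale (adjusted p 0.04). These calls held with 1 and 2 of 9 arrays left out, and under the replicate block their adjusted p was 0.0821 and 0.0865. With the slide as a block the Slc25a27 call was lost (0.146), and the Slc25a31 difference was 1.30 with normexp background and 2.83 with the slide as a block.

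Of 16 regulators of mitochondrial gene expression, Esrra, a nuclear receptor that acts with PGC-1 coactivators, rose by 2.57 (SE 0.52, adjusted p 0.0406) in hippocampal Sox2-GFP over DCX-DsRed cells. Its levels were 0.06, -0.44 and -1.86 in DCX-DsRed cells, 1.34, 1.76 and 2.36 in hippocampal Sox2-GFP cells and 1.75, 1.44 and 1.40 in SVZ cells. Both Sox2-GFP groups were high and DCX-DsRed cells low. The call was lost with any 1 of the 9 arrays left out (differences of 2.01 to 2.97) and under the replicate block (adjusted p 0.0893), and with the slide as a block the difference was 3.77. Tfb2m, a transcription factor of mitochondrial DNA, rose by 3.74 (SE 0.66, adjusted p 0.0378) in SVZ over DCX-DsRed cells, where 1 of 3 DCX-DsRed arrays was well above background. The call held with 2 of 9 arrays left out, with differences of 3.35 to 4.21. It was lost with the slide as a block (adjusted p 0.0633) and with quantile normalization (0.0539), and with normexp background the difference was 2.16, a factor of 4.46 where the first was 13.4. The list's medians were 0.00 and 0.20 in the comparisons of hippocampal Sox2-GFP with DCX-DsRed cells and of SVZ with hippocampal Sox2-GFP cells.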

How the data were processed

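The deposited files hold, for every array, the scanner's spot table. Per the file headers, its intensity values came from Agilent Feature Extraction 9.5.1.1, with background already subtracted from the processed signal. The authors' deposited intensity values are not normalized between arrays. In the submitters' processing notes limma is named, without its version. One file had been saved by a spreadsheet program, so names came from the other files. Control spots and outlier-flagged spots were left out, a probe's spots were averaged, and 40710 probes were scaled as log2 minus the array's 75th percentile. The brightest kept probe stood for a gene, for members among the probes the rule names. RefSeq (GRCm38.p6) gave current symbols. In R 4.3.3, limma 3.58.1 (lmFit, then eBayes) gave the differences from all 9 arrays together (6 residual degrees of freedom, threshold 0.05), after a test on simulated data. Called means an adjusted p under 0.05.

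The genes named are, per comparison and complex, called genes or the gene with the smallest p, plus Sdha to Sdhd, Cycs, Cyc1 and isoform pairs, and per other list up to 3 called genes or the smallest p. Members, roles and lists were chosen with earlier results of these data known. Alternatives changed background, scaling, filter, probe choice, flags, slide, replicate block, groups fitted and arrays left out. For NRF1 a string longer by 1 base was searched first.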

Additional observations from a re-analysis of the deposited data

How the results depend on the processing

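The members' median differences kept their direction in the first 2 comparisons under all 22 alternatives, with 0.56 to 0.85 and -0.91 to -0.48 when an array was left out, and moved beyond the spread between arrays only for SVZ minus hippocampal Sox2-GFP, to -1.39 with the slide as a block and -1.40 within slide 3. The count of members called higher between hippocampal Sox2-GFP and DCX-DsRed cells (1) was 0 with scaling to the median, no filter on dim probes, each probe tested or only the 2 groups compared. With the slide as a block it was 5 higher with 1 lower (Dmac2l, no core subunit), in a fit that called 2027 of all 24890 genes. With an array left out it was 0 to 1. The 1 was Cox5a without DCX-DsRed replicate B, and Ndufa1 without SVZ replicate A (adjusted p 0.0437). Those fits called 287 and 734 of all genes. With slide as a random block the called member was Ndufs8 (0.0464) and not Cox5a, and 855 of all genes were called. Between SVZ and hippocampal Sox2-GFP cells, 1 member was called lower with normexp background and with quantile normalization, where 162 and 146 of all genes were called. With the slide as a block, 7 were lower and 2 higher (Emc8 and Dmac2l, no core subunits), in a fit that called 2129 of all genes against 99. Between SVZ and DCX-DsRed cells, 1 was called higher with normexp background and with slide as a random block. Those fits called 543 and 834 of all genes, so 1 of 80 members says nothing particular about them. The labels do not say whether the replicate letters pair the samples. Correlations of deviations from group means between same-lettered arrays were -0.044 to 0.115. They cannot settle the pairing, since some of these pairs also share a slide. With the replicate block, 0 members were called in the hippocampal comparison, and genes called over all were 489 against 790. No named result turned its sign and kept a call. With 3 arrays a group, small differences cannot be told from the spread.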
